A study of Mus musculus with 4 samples.

Results

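Expression of 44 genes of the inner ear and of hereditary deafness was measured in extracts of mouse ears, out of the 20971 genes that could be named on the array. They were chosen by name: a gene is a member if at least 1 probe of the array carries a RefSeq accession that maps to its symbol, and it is read by its brightest probe. Male BALB/c mice, young adults of at least 6 weeks, inhaled diesel exhaust particles (DEP), the carbon-rich soot of diesel engines, for 1 h on each of 5 days, and all mice were killed on day 14; the study used 9 mice in all. Total RNA of ears was compared on 4 two-colour arrays, each with an extract labelled DEP_ear in Cy5 and an extract labelled CON_ear, treatment "none", in Cy3, and the labels call the arrays biological replicates. The labels give the tissue only as ear. According to the methods, the region of the temporal bone with the middle ear was taken and RNA was extracted from dissected middle ears; the same bone also encloses the cochlea and the vestibular organs, and neither source gives the number of mice behind an extract or how control mice were handled. Array k below is replicate k.

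The cochlea turns sound into nerve signals, and the vestibular organs do the same for head movement. Hair cells carry a bundle of actin-filled stereocilia joined by fine links, and pulling on these links opens the transduction channels. The bundle lies under or within an extracellular matrix (the tectorial membrane, or the otoconial membranes with their crystals), and its current is fed by the potassium-rich endolymph that connective tissue, supporting cells and the stria vascularis maintain through gap junctions and ion transporters. Genes for each of these parts are among the known causes of deafness in mice and humans. In a bulk extract, fewer cells of a type and less RNA per cell cannot be told apart.

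On the deposited ratios, 0 members passed the test for a difference between DEP and control after adjustment over all probes. Of the other dye corrections given below, loess gave 0 members and median centring 4, the latter beside 3562 of 32360 genes. Of the 26 members measured in every extract, 14 had their lowest signal in 1 extract, the one labelled DEP of array 1; they include Otos, Coch, Gjb2, Gjb6 and Slc26a4 but also hair bundle and hair cell genes such as Myo7a, Myo15 and Ocm. Among all genes so measured that extract was the lowest for 22.5%, and 5 of the 14 were near ties with the control extract of the same array. Eya1 and 1 of the 2 probes for Tmprss3 had a small ratio of the same sign on every array, with channels that did not overlap, a share of the members (2 of 26) below the 11.7% of all genes. The other members, such as Espn and Whrn, showed neither pattern.

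The promoters of 5 genes of the cochlear wall that were lowest in that extract are shown to give the sequence upstream of each. They are the 250 bases before the annotated start, written 5′ to 3′ on the gene's strand, from RefSeq on GRCm38.p6. Capitals mark TATAAA and GGGCGG, or the same letters read on the other strand.
Otos, chr1:92648842-92649091, minus strand: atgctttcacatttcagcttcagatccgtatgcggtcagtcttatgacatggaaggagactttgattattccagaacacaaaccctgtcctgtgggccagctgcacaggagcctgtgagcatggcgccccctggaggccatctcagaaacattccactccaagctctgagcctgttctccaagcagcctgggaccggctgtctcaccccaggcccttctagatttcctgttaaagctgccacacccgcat
Coch, chr12:51593091-51593340, plus strand: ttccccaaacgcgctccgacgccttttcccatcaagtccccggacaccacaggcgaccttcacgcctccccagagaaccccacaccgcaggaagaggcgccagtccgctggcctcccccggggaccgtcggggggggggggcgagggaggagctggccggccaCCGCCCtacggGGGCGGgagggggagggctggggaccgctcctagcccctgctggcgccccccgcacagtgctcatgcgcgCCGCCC
Gjb2, chr14:57104703-57104952, minus strand: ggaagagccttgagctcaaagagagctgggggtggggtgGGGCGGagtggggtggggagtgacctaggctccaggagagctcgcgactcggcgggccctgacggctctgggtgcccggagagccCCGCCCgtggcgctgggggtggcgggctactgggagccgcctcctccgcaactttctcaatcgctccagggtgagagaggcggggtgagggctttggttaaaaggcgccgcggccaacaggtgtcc
Gjb6, chr14:57133612-57133861, minus strand: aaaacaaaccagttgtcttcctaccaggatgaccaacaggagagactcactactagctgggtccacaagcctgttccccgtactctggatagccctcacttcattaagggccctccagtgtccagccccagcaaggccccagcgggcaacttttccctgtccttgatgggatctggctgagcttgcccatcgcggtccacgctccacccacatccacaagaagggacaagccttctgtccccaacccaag
Slc26a4, chr12:31559985-31560234, minus strand: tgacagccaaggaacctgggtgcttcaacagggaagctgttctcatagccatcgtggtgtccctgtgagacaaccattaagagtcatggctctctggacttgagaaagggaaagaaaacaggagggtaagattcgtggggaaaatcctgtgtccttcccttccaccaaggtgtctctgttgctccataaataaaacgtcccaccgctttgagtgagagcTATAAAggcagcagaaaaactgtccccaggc
None of these letters is in all 5 windows. Slc26a4 has TATAAA starting 31 bases before the start, Gjb2 has 2 copies of GGGCGG and Coch 3, and Otos and Gjb6 have neither. Promoters were matched for 35 of the 44 members, which have 42 between them. TATAAA, searched on both strands, is in 3 of these 42 (those of Otor, Pcdh15 and Slc26a4) and in 12.4% of all 32851 promoters of the same length. GGGCGG is in 18 of 42 (42.9%) and in 32.7% of all, and CANNTG, the general E-box, in 27 of 42 (64.3%) and in 66.2% of all. A match is a description of the letters and not evidence of a bound site.

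Before the members' values, 2 features of the whole series bear on every sign and mean. Ratios are Cy5 over Cy3, that is DEP over control if the source names hold. In the labels both treatments stand under Cy5, and the labels give the same dyes for all 4 arrays; the direction used here is the opposite of the study's for most of the genes it names. Among genes listed as upregulated, 24 of the 25 with a ratio were lower in Cy5, the DEP channel here, and among those listed as downregulated 9 of 11 were higher. If the channels were the other way round, every sign below would turn and every size would stand. The arrays also differed from each other: over 18345 genes measured in both channels, the ratios of arrays 1 and 2 correlated at r = 0.63 and those of arrays 1 and 4 at r = -0.47, and over all 31577 tested probes arrays 1 and 4 correlated at r = -0.22. With array 2, array 4 correlated at r = -0.05 over the 18345 genes and 0.13 over all tested probes. With array 3 the values were 0.13 and 0.29. An alternative with the sign of array 4 turned, because of its negative correlation with array 1, was added after the data were seen. Under it the mean log2 ratios of Eya1 and Tmprss3 were 0.31 and 0.26 (adjusted p = 0.735 and 0.766, limma), without an unadjusted p under 0.05. Both were above 0 on every array, so the turn had to break their common sign and lower their means, and it tests neither gene. The 1 member past 2-fold was Espn, at 1.51, whose ratio on array 4 was -1.34 before the turn. Over the 26 members measured in both channels, arrays 1 and 2 correlated at 0.14 and arrays 1 and 4 at -0.34 (Pearson, across genes, which are not independent replicates and share an array). Between 59.2% and 68.9% of probes were well above background per channel and array, and all arrays lay on 1 slide and 1 scan.

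Signal was found for most members. In 26 of the 44 (59.1%), the brightest probe was above background by the scanner's stricter test in every extract, against 68.1% of all named genes. A further 4 were so in the DEP channel on all arrays and in the control channel on fewer (Tectb, Tmc2, Chrna9 and Pou4f3), 10 on some arrays only, and 4 in neither channel on any array, against 18.1% of named genes never above background. In Tmc2 and Pou4f3 the control channel fell short on arrays 3 and 4. There 59.2% and 60.3% of all probes passed in Cy3, against 68.9% and 66.5% in Cy5. On array 4 Pou4f3 passed in the DEP channel at a scaled signal of 28.1 and failed in control at 40.5. The 4 without signal were Strc (stereocilin, which ties outer hair cell stereocilia to the tectorial membrane), Cdh23 (cadherin 23, the upper part of the tip link), Myo3a (a myosin of stereocilia tips) and Slc26a5 (prestin, the motor protein of outer hair cells). By role, all 5 genes of ion transport and gap junctions, 10 of 15 hair bundle genes, 4 of 11 matrix genes, 2 of 4 transduction genes, 3 of 5 genes of the hair cell synapse and its relatives, and 2 of 4 transcription genes were measured in both channels throughout. As a check of the tissue, markers of cochlear fibrocytes (Otos, Coch) and of hair cells (Otof, Myo7a) were measured in all 8 extracts, as was Ocm, a calcium buffer of outer hair cells, while Slc26a5 and Strc, also outer hair cell genes, were above background in none.

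**Figure D1:**
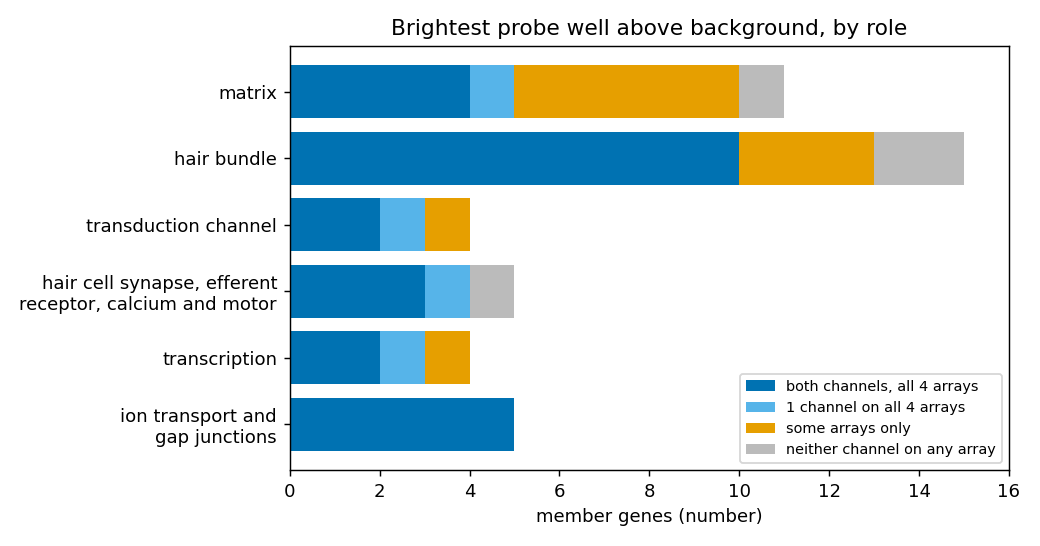
Number of member genes by role (x axis, genes) and by how often the brightest probe was well above background. All 5 ion transport and gap junction genes were measured in every extract, against 4 of the 11 matrix genes.

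Counted over the list, the members did not stand out from the array. Of the 44, 41 had ratios enough for a test (Cdh23, Slc26a5 and Atoh1 had not), and 0 had an adjusted p under 0.05 (limma, Benjamini-Hochberg adjustment over 25668 genes, of which 0% were called; the smallest adjusted p of any gene was 0.0922). At an unadjusted p under 0.05, 4 members were higher in the DEP channel (Tectb, Chrna9, Eya1 and Tmprss3), which is 9.76% of 41 against 10.0% of all genes, and 0 were lower, against 8.64%. Past 2-fold, 1 member was higher (Chrna9, whose control channel was near background; 2.38% of all genes) and 0 were lower (4.39%). Of the 26 measured in both channels, 4 had a ratio above 0 on every array (Otof, Eya1, Eya4 and Tmprss3), a share of 15.4% that equals the 15.4% of all genes so measured, and 1 below 0 on every array (Ush1g; 10.7% of genes). The ranges of the channels did not overlap for 2 (Eya1 and Tmprss3), 7.69% of the members against 11.7% of genes. With normexp and median centring in place of the deposited dye correction, 4 members had an adjusted p under 0.05, all higher in the DEP channel (Triobp, Otof, Eya1 and Tmprss3), beside 3562 of 32360 genes. With normexp and loess 0 members and 0 of the 32360 genes did. With 4 arrays the exact sign-flip test of 1 gene cannot go below p = 0.125 (two-sided).

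The ratios of most members varied between arrays. The median SD of the log2 ratio over the 4 arrays was 0.48 for the 26 members, 0.28 for all genes so measured, 0.49 for a list of other inner ear genes described below, and 1.35 for the neuron markers. Of the 26, 20 were above the median of all genes, and Myo7a, Ush1g, Triobp, Otof, Eya1 and Tmprss3 were below it. On array 2, 22 of the 26 were higher in the DEP channel, with a median log2 ratio of 0.45 against 0.08 for all genes. On array 1 only 9 of 26 were higher, with a median of -0.12 against -0.01. The medians were 0.12 and -0.12 on arrays 3 and 4, against 0.01 and 0.03, so that the median of the members' mean ratios was 0.04.

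**Figure D2:**
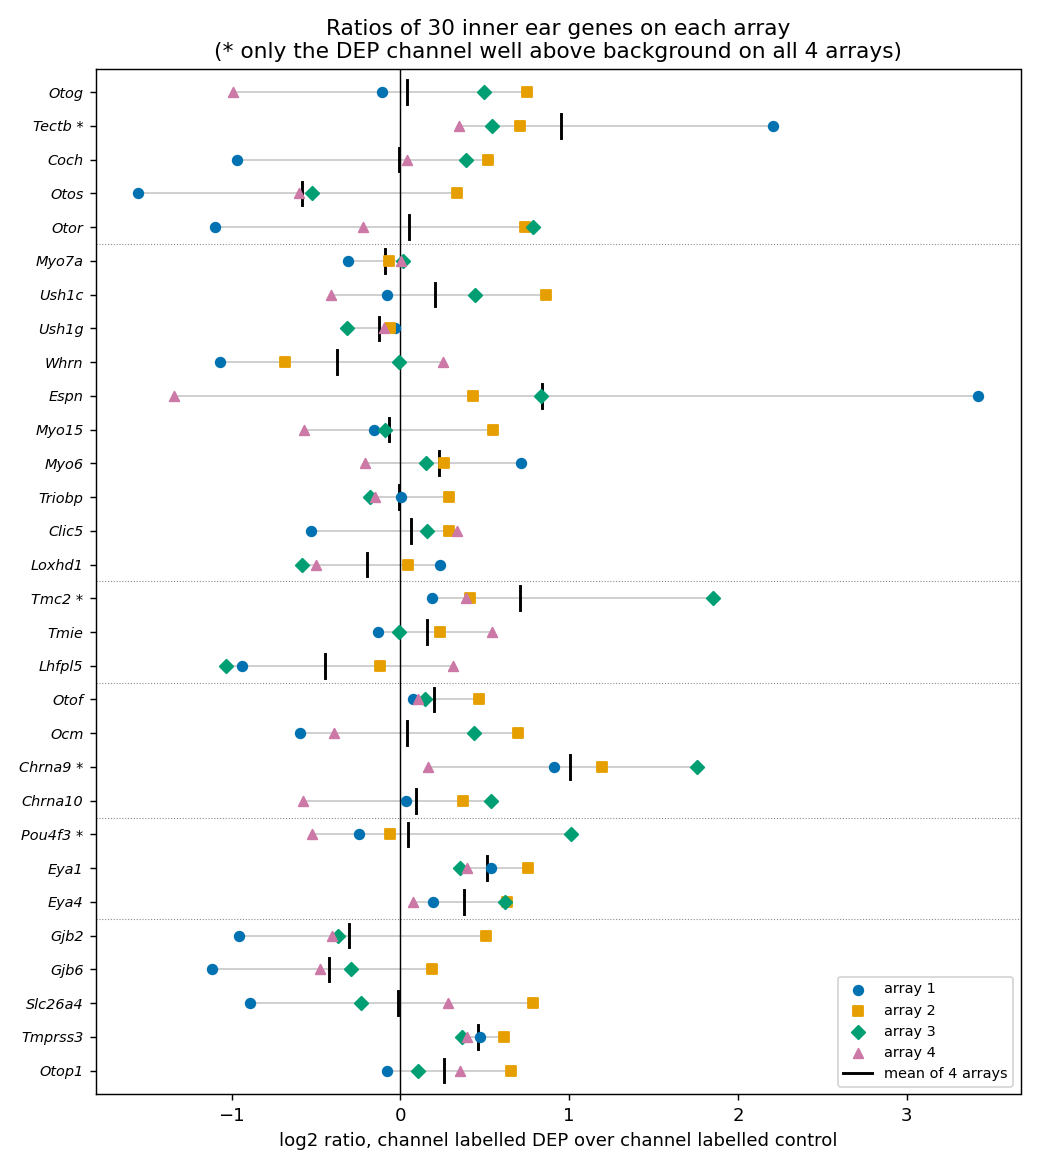
Log2 ratio of the DEP over the control channel (x axis) on each of the 4 arrays for the 30 members with at least 1 channel well above background on all arrays, ordered by role, with the mean as a black bar. Most genes lie on both sides of 0; Eya1 and Tmprss3 lie between 0.35 and 0.76 on every array, and Espn runs from -1.34 to 3.42.

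Among the matrix genes, Otos encodes otospiralin, a small secreted protein of cochlear fibrocytes. Its log2 ratios were -1.55, 0.34, -0.53 and -0.60 on arrays 1 to 4, lower in the DEP channel on 3 arrays and higher on array 2 (mean -0.59 ± 0.77 SD, n = 4, adjusted p = 0.370). Its scaled signals, in intensity units after quantile scaling between arrays, were 10004, 24750, 26556 and 22427 in the DEP channel. In the control channel they were 29376, 19618, 38229 and 33972, so that the channels overlapped and the DEP extract of array 1 was the lowest of the 8. Coch, cochlin, the main protein of the fibrocyte matrix and the gene of a dominant deafness with vertigo, had ratios of -0.97, 0.52, 0.39 and 0.04 (mean -0.01 ± 0.67 SD). Its DEP signals were 4386, 11941, 11973 and 11563 against 8594, 8335, 9161 and 11253 in control. Here too the only low value was in the DEP extract of array 1, and the mean over the other 3 arrays was 0.31.

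Otor, otoraplin, a secreted protein of the inner ear and of cartilage, had log2 ratios of -1.10, 0.74, 0.78 and -0.22 (mean 0.05 ± 0.89 SD). Otog, otogelin of the tectorial and otoconial membranes, had -0.11, 0.75, 0.50 and -0.99 (mean 0.04 ± 0.77 SD). Both changed sign between arrays, and their means changed sign when array 2 or array 3 was left out. Tectb, β-tectorin of the tectorial membrane, had ratios of 2.20, 0.71, 0.54 and 0.35, all above 0 (mean 0.95 ± 0.85 SD, adjusted p = 0.251). Its signals were 38.4, 49.1, 115 and 72.9 in the DEP channel and 8.34, 30.1, 79.0 and 57.3 in control. The channels overlapped, and the control of array 1, which set the largest ratio, was not well above background; without array 1 the mean log2 ratio was 0.53, and with normexp on all arrays it was 0.30 after loess and 0.24 after median centring. The remaining matrix genes (Otogl, Otoa, Tecta, Oc90 and Otol1) were above background on some arrays only, with mean log2 ratios from 0.00 to 0.23. In Tecta and Oc90, at 0.23 and 0.22, no control signal was well above background on any array, so their means are not exact.

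Of the 5 genes of ion transport and gap junctions, 4 were lower in the DEP channel on array 1 and all 5 were higher on array 2. Gjb2 and Gjb6 encode connexins 26 and 30, the paired gap junction proteins of supporting cells and fibrocytes, and Gjb2 is the most frequent gene of recessive deafness. Gjb2 had log2 ratios of -0.96, 0.50, -0.37 and -0.40 (mean -0.31 ± 0.60 SD, n = 4, adjusted p = 0.542). Its signals were 2447, 7857, 5919 and 6672 in the DEP channel and 4756, 5538, 7666 and 8827 in control. Gjb6 had ratios of -1.12, 0.19, -0.29 and -0.48 (mean -0.42 ± 0.54 SD, adjusted p = 0.376), with DEP signals of 3929, 8798, 7436 and 6972 against 8523, 7715, 9101 and 9703. In both, 3 of 4 arrays were lower in the DEP channel and the channels overlapped. Without array 2, the mean ratios of Otos, Gjb2 and Gjb6 were -0.89, -0.58 and -0.63 and each had an unadjusted p under 0.05, with adjusted p of 0.426, 0.437 and 0.446. With normexp the means were -0.51, -0.34 and -0.43 after loess, while after median centring all 3 turned sign, to 0.13, 0.095 and 0.054.

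Slc26a4, pendrin, the anion exchanger of the endolymphatic sac and the spiral prominence, had log2 ratios of -0.89, 0.79, -0.23 and 0.28 (mean -0.01 ± 0.72 SD). Its DEP signals were 779, 2261, 1668 and 2134 against 1447, 1310, 1961 and 1756 in control, with the DEP extract of array 1 again the lowest of the 8. Otop1, a proton channel needed to form otoconia, had ratios of -0.08, 0.65, 0.10 and 0.35 (mean 0.26 ± 0.32 SD). A second Otop1 probe, also above background throughout, had -1.18, 1.34, -0.57 and 0.46, so that the probes of this gene differed in sign on array 3 and in size on arrays 1 and 2.

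**Figure D3:**
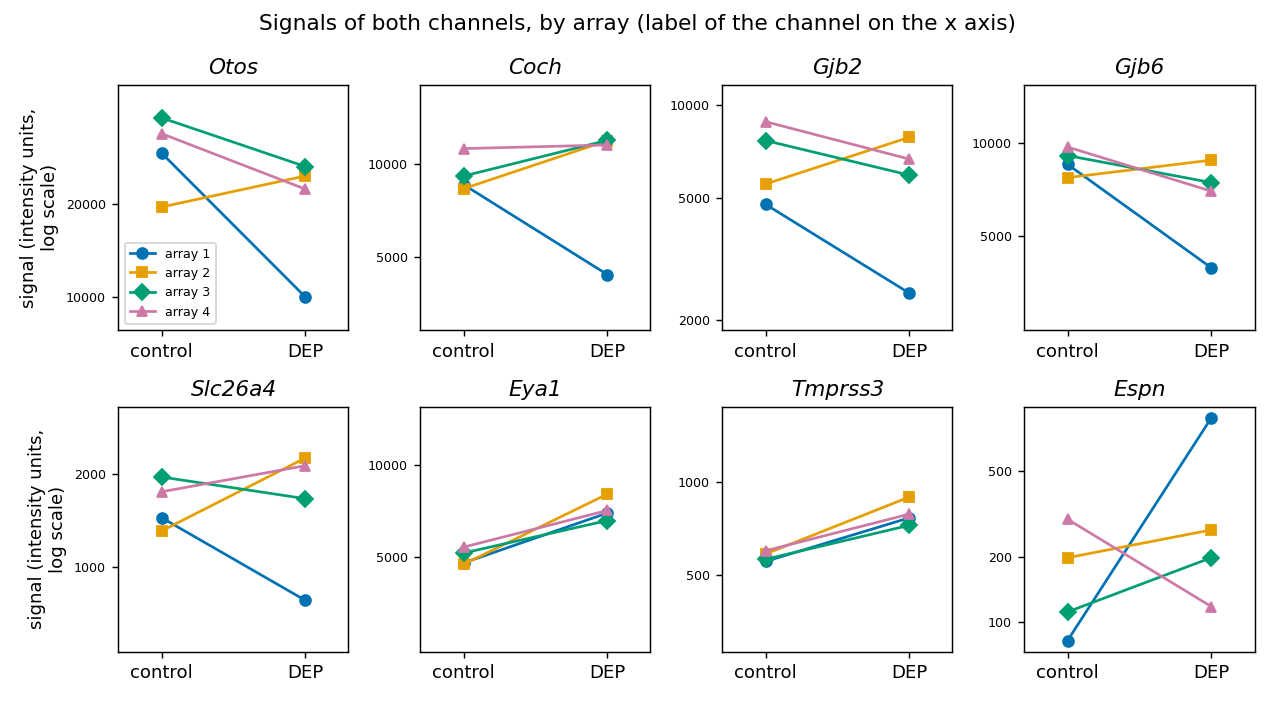
Scaled signal (y axis, intensity units, log scale) of the control and DEP channels of each array for 8 members, with a line joining the channels of 1 array. In Otos, Coch, Gjb2, Gjb6 and Slc26a4 the DEP channel of array 1 is the lowest point, and in Eya1 and Tmprss3 all 4 lines rise.

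Tmprss3, a membrane serine protease that hair cells need to survive, was the most even member. Its log2 ratios were 0.47, 0.62, 0.37 and 0.40, higher in the DEP channel on 4 of 4 arrays (mean 0.46 ± 0.11 SD, n = 4, adjusted p = 0.160, limma). Its signals were 767, 896, 725 and 789 in the DEP channel and 554, 585, 562 and 599 in control, with no overlap. A second probe for Tmprss3, well above background in the DEP channel on all arrays and in control on 2, had ratios of -0.27, -0.11, -0.34 and 0.07, of the opposite sign on 3 arrays. The higher ratio thus belongs to 1 probe of this gene, and over the mean of both probes it was 0.15 (adjusted p = 0.485).

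Of the transcription genes, Eya1 and Eya4 encode paired coactivators with phosphatase activity that direct ear development and whose loss causes deafness. Eya1 had log2 ratios of 0.54, 0.76, 0.35 and 0.40 (mean 0.51 ± 0.18 SD, n = 4, 95% interval 0.20 to 0.82, adjusted p = 0.163, limma). Its DEP signals of 6974, 8035, 6593 and 7109 all lay above its control signals of 4799, 4753, 5169 and 5403. Eya4 had ratios of 0.19, 0.63, 0.62 and 0.08 (mean 0.38 ± 0.29 SD, adjusted p = 0.270), and its channels overlapped, from 211 to 301 in DEP and from 180 to 268 in control. Eya1 is read by 1 probe, and the gene is also known from muscle and other tissues. Pou4f3, the transcription factor that hair cells need to mature, was well above background in the control channel only on arrays 1 and 2, where its ratios were -0.25 and -0.06; on arrays 3 and 4 they were 1.01 and -0.52. Atoh1, the factor that starts the hair cell fate, was above background in both channels on 1 array only and had no test.

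Of the 10 hair bundle genes measured in every extract, 4 had a mean log2 ratio above 0 and 6 below, from -0.38 to 0.84. Myo7a, the myosin that tensions the tip links and the gene of Usher syndrome type 1B, had log2 ratios of -0.31, -0.07, 0.01 and 0.00 (mean -0.09 ± 0.15 SD). Ush1g, the scaffold protein Sans that binds it, had -0.03, -0.06, -0.32 and -0.10, below 0 on every array (mean -0.13 ± 0.13 SD, adjusted p = 0.558), with overlapping channels. Ush1c, harmonin, the third protein of that complex, had -0.08, 0.86, 0.44 and -0.41. These members of 1 complex thus differed in their order of the arrays: Ush1c varied most and Myo7a and Ush1g least.

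Whrn, whirlin, a scaffold of the stereocilia tips, had log2 ratios of -1.07, -0.69, -0.01 and 0.25 (mean -0.38 ± 0.61 SD), and a second probe for it, seldom above background, was below 0 on 3 arrays. Myo15, the myosin that carries whirlin to the tips, had -0.16, 0.55, -0.09 and -0.57. Myo6, a myosin at the base of the stereocilia, had 0.72, 0.26, 0.15 and -0.21. Each of these 3 genes had ratios on both sides of 0, and none had a mean beyond its spread. Triobp, which bundles actin in the stereocilia rootlets, Clic5, at the base of the bundle, and Loxhd1, a stereocilia protein, had mean ratios of -0.01, 0.06 and -0.20, each with values on both sides of 0. A second Triobp probe, above background in neither channel on any array, had -1.07, -1.68, -0.80 and -1.42, and the mean over both probes was -0.63 (adjusted p = 0.120). Of the remaining hair bundle genes Pcdh15 (protocadherin 15, the lower part of the tip link), Ptprq and Grxcr1 were above background on some arrays only.

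Espn, espin, which bundles actin in stereocilia, was the member with the widest range. Its log2 ratios were 3.42, 0.43, 0.83 and -1.34 (mean 0.84 ± 1.97 SD, n = 4, adjusted p = 0.580). Its signals were 878, 266, 198 and 117 in the DEP channel and 81.7, 198, 111 and 298 in control, so that the highest and lowest of the 8 extracts shared array 1. A second probe had 3.13, 0.30, 0.57 and -1.70, the same order of the arrays, and without array 1 the mean was -0.03. The keratinocyte markers (Krt5, Krt14, Krt1, Krt10 and Lor), genes of skin, moved with it: all 5 were measured, and their median log2 ratios were 2.95, 0.31, 0.07 and -0.90 on arrays 1 to 4. Krt14, a keratin of the basal layer, had 2.95, 0.57, 0.92 and -1.80. The summed signal of the list ran from 41128 to 247237 in the DEP channel and from 37660 to 70257 in control, with none of its defining markers below background. Their part in the values of Espn was not tested.

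Of the transduction genes, Tmie and Lhfpl5 encode membrane proteins that join the tip link to the channel. Tmie had log2 ratios of -0.13, 0.23, -0.01 and 0.54 (mean 0.16 ± 0.30 SD), and Lhfpl5 had -0.94, -0.12, -1.03 and 0.31 (mean -0.45 ± 0.65 SD). Neither had 1 sign throughout. Tmc2, a pore subunit of the channel in immature hair cells, had 0.19, 0.41, 1.85 and 0.39 (mean 0.71 ± 0.77 SD, adjusted p = 0.306), and with normexp its mean was 0.078 after loess and -0.071 after median centring. Its DEP signals were even, 50.3, 42.6, 42.9 and 44.9, while its control signals were 44.1, 32.0, 11.9 and 34.3 and not well above background on arrays 3 and 4. Tmc1, the pore subunit of mature hair cells, was above background in each channel on 3 arrays, with a mean of 0.19 ± 0.97 SD.

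At the synapse, Otof encodes otoferlin, the calcium sensor of transmitter release from inner hair cells. It had log2 ratios of 0.08, 0.46, 0.15 and 0.10, above 0 on every array (mean 0.20 ± 0.18 SD, n = 4, adjusted p = 0.417), with overlapping channels of 1134 to 1674 in DEP and 1075 to 1557 in control. Ocm, oncomodulin, a calcium buffer of outer hair cells, had -0.60, 0.70, 0.43 and -0.39. Chrna9 and Chrna10 form the acetylcholine receptor through which brainstem neurons damp outer hair cells. Chrna9 had 0.91, 1.19, 1.76 and 0.17 (mean 1.01 ± 0.66 SD, adjusted p = 0.187). No array had a control signal well above background, so no exact fold can be given. The control was therefore set on each array to its own signal or, if higher, to the lowest signal that passed as well above background. So set, the DEP signal was 1.46-fold higher as a mean over the arrays, while on array 4 the signals were 42.2 and 37.6. With normexp the mean log2 ratio was 0.27 after loess and 0.11 after median centring. Chrna10, measured throughout, had 0.03, 0.37, 0.54 and -0.58 (mean 0.09 ± 0.49 SD).

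Set side by side, the 8 extracts show where the spread lay. The extract labelled DEP of array 1 had the lowest signal of the 8 for 14 of the 26 members, while it was the lowest for 22.5% of the 18345 genes measured in both channels and the highest for 23.9%. The 14 were Otog, Coch, Otos, Otor, Myo7a, Ush1c, Ush1g, Myo15, Lhfpl5, Ocm, Gjb2, Gjb6, Slc26a4 and Otop1. Against the median of the other 7 extracts, its signal was lower 2.73-fold for Gjb2, 2.65-fold for Otos, 2.60-fold for Otor, 2.57-fold for Coch, 2.26-fold for Myo15, 2.25-fold for Slc26a4, 2.17-fold for Gjb6, 2.15-fold for Ush1c, 2.11-fold for Otog and 2.08-fold for Ocm, and for the other 4 of the 14 by 1.14-fold (Ush1g) to 1.94-fold (Lhfpl5). The count of 14 holds near ties with the control extract of the same array: for Otog (128 against 137), Ush1c (234 against 247), Ush1g (188 against 192), Myo15 (46.3 against 51.7) and Otop1 (396 against 418) both channels of array 1 were low. Eya1 and Tmprss3 lay above that median in the same extract, and Espn and Myo6 were at their highest in it. On signals not scaled between arrays, an alternative added after the data were seen, 10 of these 14 members were still the lowest in this extract, against 3.51% of genes. The other extreme was the control extract of array 4, the highest for 8 members and for 11.8% of genes: Otog, Otor, Ush1c, Myo15, Loxhd1, Chrna10, Gjb2 and Gjb6.

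**Figure D4:**
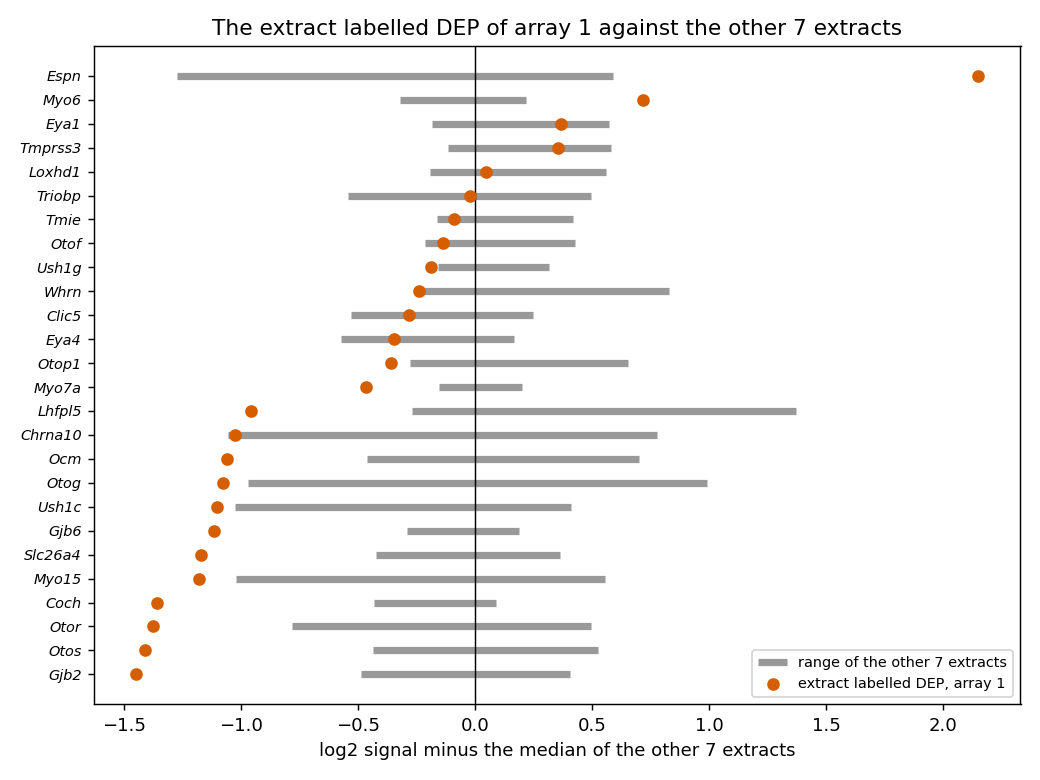
Signal of the extract labelled DEP of array 1 (points) minus the median of the other 7 extracts (x axis, log2), for the 26 members measured in both channels; grey bars span the other 7. For 14 members the point lies below the bar, by the most in Otos, Gjb2, Coch and Gjb6 (1.77-fold to 1.96-fold) and by 1.12-fold or less in Myo15, Otog, Otop1, Ush1c and Ush1g, and for Espn and Myo6 it lies above.

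Other genes were also low or high in that extract. The summed signal of neuron markers was 14984 there and between 23620 and 65129 in the other 7, with none of the 10 markers below background throughout. Gene by gene, it was the lowest of the 8 extracts for 6 of 10 neuron markers, 3 of 6 of astrocytes, 3 of 5 of Schwann cells and myelin, 3 of 5 of airway-type epithelium, 1 of 5 of bone and cartilage, 1 of 4 of melanocytes (Dct), 1 of 3 of macrophages, 0 of 9 of cerebellum and 0 of 6 of skeletal muscle, and the highest for 5 of 5 of keratinocytes. Of the 49 other inner ear genes described below, whether above background or not, 23 were lowest in it. Their part in the members' values was not tested. Over the arrays, the neuron list had medians of -2.37, -1.38, -0.54 and 0.36 and the cerebellum list -2.55, -3.16, -0.32 and 0.24, both far below 0 on array 2, where the inner ear members had their highest median.

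**Figure D5:**
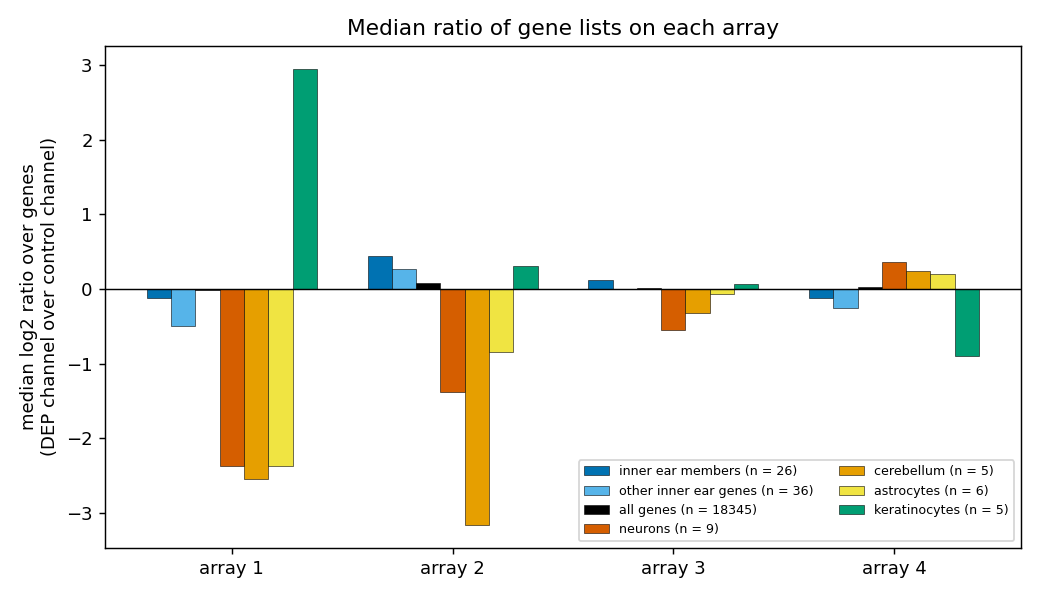
Median log2 ratio (y axis) of 7 gene sets on each array, over genes measured in both channels. The inner ear members stay between -0.12 and 0.45, while neuron and cerebellum markers lie at -1.38 or lower on arrays 1 and 2 and keratinocyte markers reach 2.95 on array 1.

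A further 49 genes of the inner ear, such as Sox2, Kcnj10 and Bsnd, were read in the same way. Of these, 36 were measured in every extract, and their median log2 ratios were -0.49, 0.27, -0.01 and -0.25 on arrays 1 to 4, low on array 1 and high on array 2 like the members. Of the 36, 18 had a mean ratio above 0 and 18 below. Of 44 tested, 0 passed after adjustment. At an unadjusted p under 0.05, 1 was higher (Gfi1, a transcription factor of hair cells and of blood cells), against 10.0% of all genes. Lower were 5, against 8.64% of all genes. Of those 5, Tomt and Kcne1 were well above background in neither channel on any array, and Atp6v1b1 only in control on 1 array. Sox2, a transcription factor of supporting cells and glia, had ratios of -1.27, -0.21, -0.76 and -0.24, and Calb2, the calcium binder calretinin of hair cells and neurons, had -1.81, -1.43, -0.10 and -0.61. Kcnj10, the potassium channel of the stria vascularis and of astrocytes, had -2.54, -1.19, -0.33 and -0.26 (adjusted p = 0.272), below 0 on every array; Sox2, Calb2 and Kcnj10 were singled out after their values were seen. The brightest probes of this list were those of Cib2, Slc12a2 and Tbx1, with mean log2 ratios of -0.34, -0.30 and 0.38.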

How the data were processed

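RNA of 4 pairs of ear extracts was hybridised to 4 two-colour arrays, 43020 spots each, and groups were taken from the source names of the labels. The authors quantified the spots with Agilent Feature Extraction 10.10.1.1 and deposited 1 scanner file per array, whose intensity columns hold signals corrected for background and dye. The deposited log10 ratios of Cy5 to Cy3 signal were turned into log2, and probes without a ratio or flagged as outliers were left out. The authors also deposited a table of the same log10 ratios, used as an alternative, and 0 of its value columns were without a sample. The scanner's own ratio p-values and errors were not used.

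The files hold no gene names: 27655 of 39429 probes were named from RefSeq accessions, which gave 20971 genes, and each gene was read by the probe with the highest mean signal. Probes with at least 3 ratios were fitted with limma 3.58.1 in R 4.3.3 (mean ratio against 0, eBayes, prior degrees of freedom 1.98), and the fit was tested on simulated data. The Benjamini-Hochberg adjustment was made over the 31577 probes tested, from which 25668 genes were read. Signals per channel were scaled between arrays (Aquantile). A fold above 2 or a p under 0.05 was counted as past the limit. Other settings were normexp (offset 50) before loess or median centring, run on the median spot signals because the files hold no mean signals. All 44 members are accounted for, and those with a channel well above background on all arrays are described by array. The members, the lists of other inner ear genes and cell types and these rules were chosen with earlier results of these data known. P-values measure the spread between the 4 arrays, which limits the precision. The arrays were scanned on 1 slide, so that no batch could be fitted. Plots were drawn with matplotlib 3.10.9.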

Additional observations from a re-analysis of the deposited data

Results flagged for a closer look

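Tmc2 on array 3 had a log2 ratio of 1.85, far from the 0.19 to 0.41 of the other 3 arrays, with a gap to the nearest of them that was a share of 0.865 of the whole range. Its control signal on that array, 11.9, was the lowest of the 4 and not well above background, and its mean ratio without array 3 was 0.33. Among the 37 sets of 4 array ratios tested in this way, 1 was past the limit, while chance alone sets about 1 in 20 apart.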

How the results depend on the processing

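The median ratio of the members, 0.04, moved by less than the SD of the members' medians on the 4 arrays under the settings run. It ranged from -0.13 to 0.10 over the fits without 1 array, below 0 without array 2 or array 3. With median centring it was 0.29, against -0.02 for all genes. The count of 14 members lowest in the extract labelled DEP of array 1 was run under 1 other setting, signals not scaled between arrays, which gave 10. The deposited table holds these same log ratios to within 0.005 on log10. That it gave the same side and sign for all 30 members described by array therefore adds no support. The 1 member past 2-fold became 0 under either normexp setting (loess or median centring), with both channels required above background, and with 2-fold required on every array; it ranged from 1 to 3 over the fits that left out 1 array, with 3 (Tectb, Espn and Chrna9) without array 4, and the member was Chrna9 without array 1 but Tectb without array 2 or array 3. The count at an unadjusted p under 0.05 was 4, beside 18.7% of all genes. It was 2 with ordinary least squares, beside 15.5% of genes, and 5 with normexp and loess, beside 15.6%. With median centring it was 9, of which 7 were higher, beside 39.5% of genes. Over the fits without 1 array it ranged from 4 to 6. Median centring also gave 4 members with an adjusted p under 0.05 (Triobp, Otof, Eya1 and Tmprss3) in place of 0. It called 3562 genes of 32360, of which 3117 were higher in the DEP channel, and the cause was not tested. Normexp and loess called 0 members and 0 genes.

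Signs that turned belonged to members with a mean near 0 or with wide spread, and the cause was not tested. With normexp and loess the log2 ratios of Pou4f3, Slc26a4 and Triobp were -0.10, 0.11 and 0.046. With median centring those of Coch, Otos, Myo7a, Ush1g, Whrn, Triobp, Tmc2, Pou4f3, Gjb2, Gjb6 and Slc26a4 were 0.43, 0.13, 0.082, 0.024, 0.0059, 0.42, -0.071, -0.22, 0.095, 0.054 and 0.44. The mean over probes gave -0.090 for Ocm. Turning the sign of array 4, an alternative added after the data were seen, gave 0.22 for Myo15, 0.066 for Triobp, -0.10 for Clic5, 0.051 for Loxhd1 and -0.11 for Tmie. Leaving out 1 array at a time, the ratio ranged from -0.18 to 0.31 for Coch, from -0.026 to 1.56 for Espn, from -0.28 to 0.28 for Slc26a4, from -0.058 to 0.31 for Chrna10, from -0.028 to 0.26 for Clic5, from -0.19 to 0.25 for Ocm, from -0.20 to 0.38 for Otog, from -0.19 to 0.43 for Otor, from -0.015 to 0.41 for Ush1c, from -0.28 to 0.23 for Pou4f3, from -0.11 to 0.046 for Triobp and from -0.27 to 0.10 for Myo15. Each ratio sets the 2 extracts of 1 array against each other, so the fit is itself paired by array, and no further block could be fitted. Members with a channel near background are limited by signal, not by the number of arrays alone.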
